A study of Homo sapiens with 12 samples.

Results

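HEK293 cells transfected with a short hairpin RNA (shRNA) against MED12 were compared with cells that received GFP alone. The compared arrays are 6 of the 12 in the series, the 3 labelled as MED12 knockdown and the 3 labelled as GFP control. Each is a biological replicate. HEK293 is an established human embryonic kidney line, and the other 6 arrays are of the same cells with full-length MED12 or with MED12 lacking its PQL and Opa domains. The shRNA was made from an H1 promoter in peGFP-C1. The GFP control was a nuclear localized GFP in pcDNA5/TO, the vector that also carried the full-length and the PQL/Opa-deleted MED12, each with an N-terminal nuclear GFP tag. All cells were lipofected 24 h after plating and harvested 48 h after transfection, and viable GFP-positive cells were taken in a 20 min sort, so every group carried a plasmid and expressed GFP. A control hairpin was part of 0 groups, so the hairpin, its vector and the loss of MED12 cannot be told apart. The number printed after the shRNA in the sample titles was taken to name 1 hairpin, and its sequence was not analysed here.

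Values are deposited on a log2 scale, 1 for each array and row, where a row sums up the probes of a transcript cluster. Of the 22011 rows, 14432 carry 1 gene symbol and are described here by gene. A log2 fold change is the shRNA mean minus the GFP mean, given with its standard error (SE), and a value was called when limma's two-sided p, adjusted by Benjamini-Hochberg over all 22011 rows, was under 0.05. The p-values measure the spread between 3 biological replicates in each group. That spread was estimated from all 4 groups of the 12 arrays together, so the arrays with MED12 constructs add to it. Levels are not compared between genes, since probes differ in brightness, and the files give no detection call, so a dim row is not shown to be above background.

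The arrays had medians between 3.39 and 3.51 and correlated with each other at 0.881 to 0.975. They differed in how widely the values spread: the standard deviation was 1.34, 1.60 and 1.47 in shRNA replicates 1, 2 and 3, against 1.40, 1.58 and 1.60 in GFP replicates 1, 2 and 3. Of 12 HEK293 lineage markers, such as VIM and the neurofilament genes, all 12 had a row, with levels of 3.37 to 7.33. Leukocyte markers had a row for 6 of 8 genes, endothelial markers for 5 of 5 and fibroblast markers for 5 of 6, and 0 of these genes passed. The summed linear level of the leukocyte markers was 79.5 to 87.9 in the shRNA arrays and 71.7 to 75.9 in the GFP arrays. CD68, a lysosomal protein of macrophages that other cells also express, had 4.89, 4.91 and 4.92 in the shRNA arrays, against 4.53, 4.25 and 4.56 in the GFP arrays (log2 fold change 0.46, limma, adjusted p = 0.857). PTPRC, the pan-leukocyte marker CD45, had 2.65, 1.65 and 2.07 in the shRNA arrays, against 2.39, 1.77 and 1.70 in the GFP arrays, and the groups overlap. The part of these markers in the results below was not tested.

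MED12 belongs to the kinase module of Mediator, with cyclin C, CDK8 or CDK19 and MED13 or MED13L. Mediator links DNA-bound transcription factors to RNA polymerase II, and the module binds it reversibly and can hold back or help transcription. The interferon system, to which most of the results belong, starts when cytosolic sensors such as RIG-I (RIGI) and MDA5 (IFIH1) bind double-stranded or otherwise foreign RNA and signal through MAVS to IRF3 and IRF7. These switch on interferon genes and some antiviral genes directly. Secreted interferon then acts through its receptor, JAK1, TYK2, STAT2 and IRF9 on genes whose promoters hold an interferon-stimulated response element.

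The targeted transcript was lower in every shRNA array, but the difference did not pass over all rows. MED12 (row 3980758, on chromosome X) had log2 values of 3.63, 3.63 and 3.74 in the shRNA arrays, against 4.03, 4.56 and 4.66 in the GFP arrays. The 3 shRNA arrays were alike, all 3 were lower than every GFP array, and GFP replicate 1 came closest to them. MED12 was thus 1.68-fold lower with the shRNA, and the log2 fold change was -0.75 ± 0.20 (SE, 95% interval -1.18 to -0.31), with an unadjusted p of 0.00308 and an adjusted p of 0.730 (limma). Which part of the transcript the probes cover is not given, and protein was not measured. MED12L, the paralogue that can take the place of MED12 in the module, had 3.25, 2.62 and 2.90 in the shRNA arrays, against 3.12, 2.92 and 2.81 in the GFP arrays, a log2 fold change of -0.02.

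Of the other members of the kinase module none passed. CCNC, which encodes cyclin C, had 5.19, 5.62 and 5.65 in the shRNA arrays, against 5.64, 5.98 and 6.17 in the GFP arrays (log2 fold change -0.44). CDK8, a catalytic subunit, had -0.33, its alternative CDK19 had -0.11, MED13, which tethers the module to the core complex, had -0.14, and its paralogue MED13L had 0.12 (limma, adjusted p of at least 0.999 for these 5 genes). In each of these the groups overlap. Among core Mediator genes 21 of 26 had a row, 0 passed, 0 had an unadjusted p under 0.05, and the median log2 fold change was -0.10, against 0.03 over all rows with 1 symbol. MED21 and MED28 held the ends of the range, at 0.40 and -0.38.

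The clearest difference was a rise of interferon-induced antiviral genes. Of the rows with 1 symbol, 13 rose with the shRNA, which is 0.0901% of those tested (0.0591% of all rows), and 0 fell (0%). All 13 belong to the lists of interferon and RNA sensing genes. The lists were chosen with earlier results of these data known, so this membership is not a test. Without the adjustment, 314 rows were higher (2.18%) and 328 lower (2.27%) at a p under 0.05. At least a 2-fold difference was seen in 29 rows that were higher, 12 of them called, and in 13 that were lower, 0 of them called. At least 4-fold higher were 6 genes, IFIT2, RSAD2, IFI44, IFIT3, TRIM22 and IFIT1, and all 6 were called. Leaving out GFP replicate 2 left 5 of these 13 genes called, and leaving out GFP replicate 3 left 8. Other settings gave 3 called rows with 1 symbol when the 6 compared arrays were fitted by themselves, 20 after quantile normalization (all 20 higher), 21 when rows with 1 symbol were fitted by themselves (20 higher and 1 lower, SKP1) and 3560 when arrays were weighted (1985 higher and 1575 lower). Without the 3 arrays of narrowest spread, a setting chosen after seeing the data, 14 such rows were called, 13 higher and 1 lower (H2AC16, a histone gene named after its value was seen), with 9 of the 13 genes among them.

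**Figure D1:**
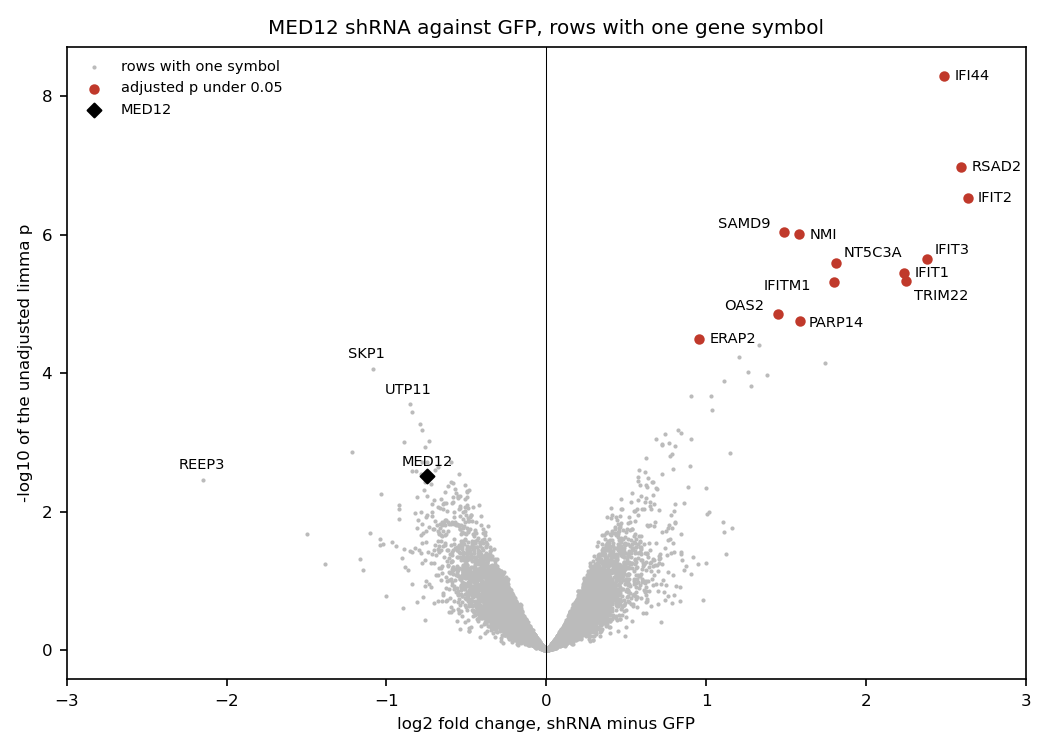
Each point is 1 of the 14432 rows with 1 gene symbol. The x axis is the log2 fold change, shRNA minus GFP, and the y axis is -log10 of the unadjusted limma p. The 13 red points are the genes with an adjusted p under 0.05, all to the right of 0. MED12, the black diamond, lies at -0.75, and the highest point on the left is SKP1 at -1.08.

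Of 4 IFIT genes with a row 3 rose, against 0.0901% of rows with 1 symbol. IFIT genes encode proteins that bind foreign RNA ends and block its translation. IFIT2 had 6.06, 7.07 and 6.68 in the shRNA arrays, against 3.67, 4.02 and 4.22 in the GFP arrays. IFIT3, a partner of IFIT1 and IFIT2, had 5.93, 6.20 and 5.68 in the shRNA arrays, against 3.43, 3.45 and 3.80 in the GFP arrays. IFIT1 had 6.57, 7.47 and 6.64 in the shRNA arrays, against 4.50, 4.60 and 4.86 in the GFP arrays. In all 3 genes the lowest shRNA array stood more than a log2 unit above the highest GFP array. The log2 fold changes were 2.63 ± 0.25 for IFIT2, 2.38 ± 0.27 for IFIT3 and 2.24 ± 0.27 for IFIT1 (SE; limma, adjusted p = 0.00220, 0.00815 and 0.00985). Without GFP replicate 2, IFIT3 had an adjusted p of 0.0619, and IFIT1 was not called without GFP replicate 1 or GFP replicate 2 (adjusted p up to 0.0746). IFIT5, which binds RNA with a 5′ phosphate, had 4.21, 5.19 and 4.94 in the shRNA arrays, against 3.37, 3.78 and 4.20 in the GFP arrays. The groups just fail to overlap, and its log2 fold change of 1.00 did not pass (limma, adjusted p = 0.801).

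RSAD2 and IFI44 showed rises of like size. RSAD2 encodes viperin, an enzyme that makes a chain-terminating nucleotide. It had 5.96, 6.45 and 6.43 in the shRNA arrays, against 3.98, 3.45 and 3.63 in the GFP arrays, which differ by 2.60 ± 0.22 on the log2 scale (SE; limma, adjusted p = 0.00117). IFI44, an interferon-induced gene of poorly known function, had 5.54, 5.98 and 5.66 in the shRNA arrays, against 3.12, 3.39 and 3.21 in the GFP arrays. Both groups were tight, and IFI44 had the lowest adjusted p of all rows (log2 fold change 2.49 ± 0.16, SE; limma, adjusted p = 1.12e-04). These 2 genes were also the ones called in each of the 9 fits with another set of arrays, normalization, filter, block, weighting or variance model and in the 12 fits that left out 1 array.

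Among factors that restrict viruses, 3 rose. TRIM22, an antiviral ubiquitin ligase, had 4.08, 4.97 and 4.71 in the shRNA arrays, against 2.60, 2.26 and 2.17 in the GFP arrays. IFITM1, a membrane protein that hinders virus entry, had 5.13, 5.68 and 5.11 in the shRNA arrays, against 3.79, 3.31 and 3.42 in the GFP arrays. SAMD9, a restriction factor for poxviruses that shuts down translation, had 4.95, 5.18 and 5.03 in the shRNA arrays, against 3.67, 3.53 and 3.49 in the GFP arrays. In none of the 3 genes do the groups overlap, and SAMD9 had the smallest spread within a group. The log2 fold changes were 2.25 ± 0.28 for TRIM22, 1.80 ± 0.22 for IFITM1 and 1.49 ± 0.16 for SAMD9 (SE; limma, adjusted p = 0.0106, 0.0106 and 0.00437). TRIM22 was not called without shRNA replicate 2 or 3 or GFP replicate 2 or 3 (adjusted p up to 0.0875), and IFITM1 was not without GFP replicate 2 or 3 (up to 0.0895).

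The other 5 genes that rose have separate roles. OAS2, an enzyme that senses double-stranded RNA and makes the 2′-5′ oligoadenylates that activate RNase L, had 3.77, 4.47 and 3.89 in the shRNA arrays, against 2.88, 2.40 and 2.51 in the GFP arrays. PARP14, an ADP-ribosyltransferase, had 5.14, 6.01 and 5.40 in the shRNA arrays, against 3.74, 4.13 and 3.91 in the GFP arrays. In both genes shRNA replicate 2 was the highest array, and the log2 fold changes were 1.45 ± 0.20 for OAS2 and 1.59 ± 0.23 for PARP14 (SE; limma, adjusted p = 0.0255 and 0.0297). Each lost its call in 9 of the 12 fits without 1 array (adjusted p up to 0.188 and 0.167). NT5C3A, a pyrimidine nucleotidase, had 6.21, 5.81 and 5.91 in the shRNA arrays, against 4.14, 3.90 and 4.46 in the GFP arrays (log2 fold change 1.81 ± 0.21, SE; limma, adjusted p = 0.00818). It was not called without GFP replicate 2 (adjusted p = 0.0619). NMI, which binds MYC and STAT proteins, had 3.65, 3.42 and 3.49 in the shRNA arrays, against 2.25, 1.77 and 1.79 in the GFP arrays (1.58 ± 0.17, SE; limma, adjusted p = 0.00437). ERAP2, which trims peptides for MHC class I, was the gene nearest the threshold, with 3.71, 3.73 and 3.45 in the shRNA arrays, against 2.78, 2.67 and 2.56 in the GFP arrays. Its log2 fold change was 0.96 ± 0.15 (SE; limma, adjusted p = 0.0470), and it lost its call in all 12 fits without 1 array (adjusted p of 0.0706 to 0.262).

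**Figure D2:**
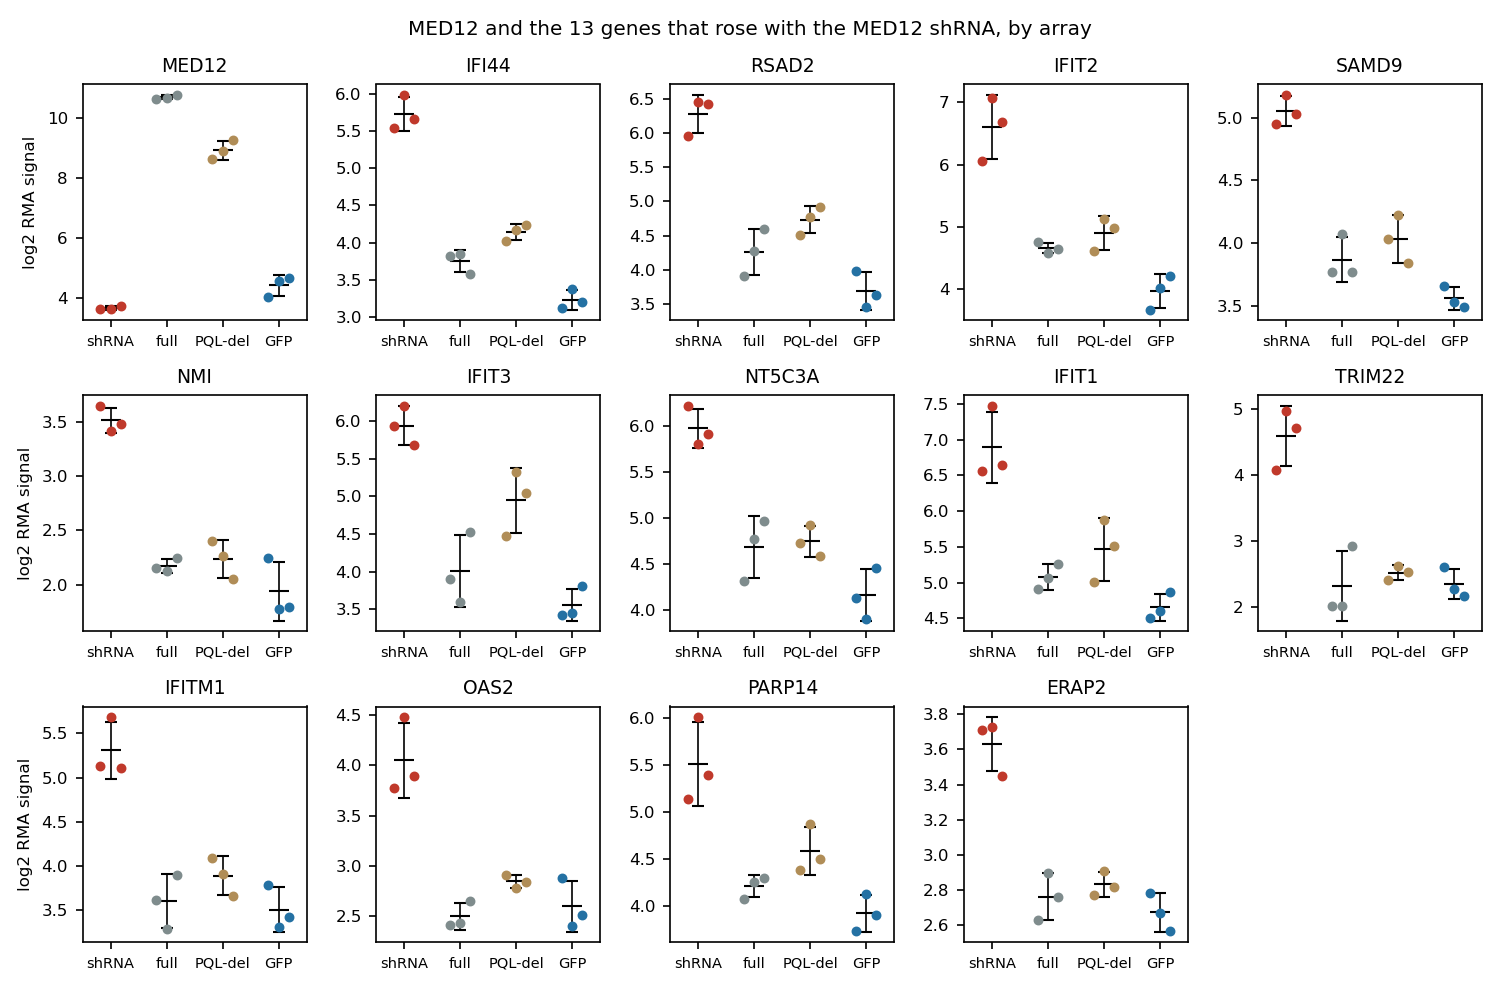
Log2 signal of MED12 and the 13 genes that rose, with 1 panel a gene and its own y axis. The groups run left to right as shRNA, full-length MED12 (full), PQL/Opa-deleted MED12 (PQL-del) and GFP. Points are arrays in replicate order and bars are the mean and SD of 3 arrays. In all 13 genes the 3 shRNA arrays lie above the other 9 arrays.

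All 13 genes had their 3 highest values of the series in the shRNA arrays, a pattern seen in 1.14% of rows with 1 symbol. Their choice by the p of shRNA against GFP nearly fixes that they exceed the GFP arrays, so the pattern is not a test. Of the 3 shRNA arrays replicate 2 was the highest in 11 of the 13 genes, against 30.2% of rows, and it was also the array with the widest spread of values. The part of that spread in these values was not tested beyond the settings in the closing section. In 5 genes, IFI44, OAS2, NMI, TRIM22 and ERAP2, the GFP mean lay below the median row of the GFP arrays (3.43), so how far they stood above background without the shRNA is not known and the sizes of their rises are uncertain.

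Promoters of these genes are printed because the interferon-stimulated response element is the site through which STAT and IRF proteins act on such genes. The windows hold 250 bases before and 50 bases after the start in RefSeq's annotation of GRCh38.p14, a build other than the hg18 named for the arrays. RefSeq's table held a window for 10 of the 13 genes. Of the 10, 6 are printed, chosen after the search: 5 of the 7 that hold the core of the element and RSAD2, 1 of the 3 that do not. Capitals mark the core of the element, searched as GAAA, any 2 bases and GAAA again on both strands (TTTC, any 2 bases and TTTC where it lies on the opposite strand), with overlapping matches counted separately. A gene name is followed by its window and its strand, and the sequence reads 5′ to 3′ in the direction of the gene.
IFI44 (chr1:78649539-78649838, forward strand): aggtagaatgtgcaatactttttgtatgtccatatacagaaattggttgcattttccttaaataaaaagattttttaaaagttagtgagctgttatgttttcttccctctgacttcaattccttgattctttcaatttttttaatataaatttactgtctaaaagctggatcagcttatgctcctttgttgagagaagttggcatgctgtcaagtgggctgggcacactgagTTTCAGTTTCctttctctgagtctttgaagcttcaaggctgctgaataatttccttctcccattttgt
SAMD9 (chr7:93117930-93118229, reverse strand): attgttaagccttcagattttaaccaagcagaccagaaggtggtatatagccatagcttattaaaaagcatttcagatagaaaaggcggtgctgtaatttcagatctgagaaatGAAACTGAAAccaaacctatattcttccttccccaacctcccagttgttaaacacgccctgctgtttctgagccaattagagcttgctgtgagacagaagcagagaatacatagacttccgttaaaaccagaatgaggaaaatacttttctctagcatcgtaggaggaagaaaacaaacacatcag
IFIT3 (chr10:89327747-89328046, forward strand): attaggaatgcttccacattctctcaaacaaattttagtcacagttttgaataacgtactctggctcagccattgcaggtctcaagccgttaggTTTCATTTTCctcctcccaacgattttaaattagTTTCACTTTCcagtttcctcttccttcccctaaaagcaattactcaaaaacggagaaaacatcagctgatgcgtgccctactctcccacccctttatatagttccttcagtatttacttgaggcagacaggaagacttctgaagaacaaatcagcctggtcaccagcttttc
IFIT1 (chr10:89392373-89392672, forward strand): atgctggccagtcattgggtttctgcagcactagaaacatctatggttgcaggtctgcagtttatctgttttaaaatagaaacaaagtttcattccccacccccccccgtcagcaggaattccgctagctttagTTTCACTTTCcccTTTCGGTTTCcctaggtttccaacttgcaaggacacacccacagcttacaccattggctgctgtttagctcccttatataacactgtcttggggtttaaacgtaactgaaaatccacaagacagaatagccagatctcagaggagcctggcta
IFITM1 (chr11:313790-314089, forward strand): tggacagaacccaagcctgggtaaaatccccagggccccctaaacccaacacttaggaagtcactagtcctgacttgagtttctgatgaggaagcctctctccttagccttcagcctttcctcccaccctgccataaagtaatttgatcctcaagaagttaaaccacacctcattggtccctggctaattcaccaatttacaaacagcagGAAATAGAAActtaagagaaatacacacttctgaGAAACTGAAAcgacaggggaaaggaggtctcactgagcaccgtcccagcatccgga
RSAD2 (chr2:6865635-6865934, forward strand): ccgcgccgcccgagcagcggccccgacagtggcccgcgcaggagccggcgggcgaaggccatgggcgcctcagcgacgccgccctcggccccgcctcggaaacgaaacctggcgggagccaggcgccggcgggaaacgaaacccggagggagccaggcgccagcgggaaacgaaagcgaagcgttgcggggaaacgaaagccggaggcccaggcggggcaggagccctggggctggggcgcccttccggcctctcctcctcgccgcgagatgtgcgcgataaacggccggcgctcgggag
Of the 10 windows 7 held the core (70%), against 1255 of all 35116 windows of this length (3.57%). IFIT1, IFIT3 and IFITM1 held 2 matches each, and IFI44, SAMD9, NMI and PARP14 held 1 each. In IFIT1 the matches begin 116 and 103 bases before the start, and in IFIT3 156 and 122 bases before it. In IFI44 the match begins 18 bases before the start and in SAMD9 136 bases before it. The windows of RSAD2, NT5C3A and ERAP2 held no match, which says only that these letters are not in the windows used. Only the first listed window of a gene was searched, so any other start of these genes was not examined. Among the 12 genes next in order of p that were higher with the shRNA, 6 of 11 windows held the core (54.5%). Among the 20 lower genes with the lowest p, 1 of 15 did (6.67%).

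The 12 higher genes next in order of p, with adjusted p from 0.0544 to 0.402 (limma), were of the same kind. SP110, a nuclear body protein, had 5.20, 6.03 and 5.69 in the shRNA arrays, against 4.19, 4.33 and 4.40 in the GFP arrays (log2 fold change 1.33 ± 0.21, SE; limma, adjusted p = 0.0544). MX1, an antiviral GTPase, had 4.01, 4.71 and 4.08 in the shRNA arrays, against 2.95, 3.18 and 3.06 in the GFP arrays (1.20; limma, adjusted p = 0.0762). OAS1, a further oligoadenylate synthetase, had 4.09, 5.06 and 4.50 in the shRNA arrays, against 3.49, 2.85 and 3.17 in the GFP arrays (1.38; limma, adjusted p = 0.112). In all 3 the groups stand apart and shRNA replicate 2 is highest. ISG15, a ubiquitin-like modifier, had 5.03, 4.58 and 4.58 in the shRNA arrays, against 3.35, 3.69 and 3.82 in the GFP arrays, and here replicate 1 is highest (1.11; limma, adjusted p = 0.126). The log2 fold changes of the others were 1.74 for RIGI, 1.26 for IFIH1, 1.28 for IFI44L, 1.03 for IFI16, 0.91 for IFI6, 1.04 for APOL6, 0.82 for BST2 and 0.84 for SAMD9L (limma, adjusted p between 0.0884 and 0.402). Without the narrow shRNA replicate 1, SP110, RIGI, IFIH1, OAS1, IFI44L and IFI16 passed (limma, adjusted p between 0.0194 and 0.0497).

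None of the interferon genes themselves passed. A row was found for 9 of 14 ligand genes, 0 passed, in 0 did every shRNA array exceed every GFP array, and the median log2 fold change was 0.16. IFNB1, the interferon that most cells make first, had 2.31, 2.04 and 2.21 in the shRNA arrays, against 2.69, 2.17 and 1.57 in the GFP arrays, so the groups overlap (log2 fold change 0.05 ± 0.26, SE). IFNA6 had 3.65, 3.19 and 3.01 in the shRNA arrays, against 1.97, 2.39 and 3.08 in the GFP arrays, with overlap (0.80; limma, unadjusted p = 0.0376, adjusted p = 0.983). The levels of the 9 ligand rows averaged 1.71 to 3.20 over the arrays, all below the median row, and none is shown to be above background. IFNA2 had 0.16, IFNA5 0.01, IFNA8 0.22, IFNW1 0.28, IFNE 0.06 and IFNK -0.18, and IFNG, the type II interferon, had 0.17. The type III genes IFNL1, IFNL2 and IFNL3 had no row with 1 symbol.

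Among sensors of nucleic acid and their adaptors 24 of 25 genes had a row. In 6 of them, 25% of the list, every shRNA array exceeded every GFP array, against 4.87% of all rows with 1 symbol. RIGI, the sensor of RNA with a 5′ triphosphate, had 5.94, 7.01 and 6.45 in the shRNA arrays, against 4.28, 4.83 and 5.07 in the GFP arrays (log2 fold change 1.74 ± 0.29, SE; limma, adjusted p = 0.0884). IFIH1, the sensor of long double-stranded RNA, had 4.91, 5.60 and 5.27 in the shRNA arrays, against 3.90, 3.93 and 4.18 in the GFP arrays (1.26; limma, adjusted p = 0.105). IFI16, a DNA sensor, had 4.58, 5.26 and 5.26 in the shRNA arrays, against 3.92 to 4.11 in the GFP arrays (1.03; limma, adjusted p = 0.181). The groups stand apart in all 3, and each is itself a gene that interferon is known to induce. The other genes of the 6 were TLR3, the endosomal sensor of double-stranded RNA (1.15), ADAR, which edits double-stranded RNA (0.69), and TRIM25, which activates RIG-I (0.71), none of which passed (limma, adjusted p of 0.553 to 0.859).

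The remaining sensors overlapped between the groups. EIF2AK2, the kinase PKR, had 5.28, 6.01 and 5.89 in the shRNA arrays, against 5.11, 5.64 and 5.57 in the GFP arrays (log2 fold change 0.29). DHX58, the sensor LGP2, had 0.23, and DDX60 had 0.30. The adaptor MAVS had 0.18, TICAM1 -0.07, MYD88 0.08 and STING1 0.07. The kinases TBK1 and IKBKE had 0.18 and -0.09, TRAF3 had -0.07, and RNF135, a ligase for RIG-I, had 0.18. The DNA sensors CGAS, AIM2 and ZBP1 had 0.07, 0.26 and -0.05. TLR7 and TLR8, receptors for single-stranded RNA, had -0.30 and 0.08. PRKRA and TARBP2, which bind double-stranded RNA and act in small RNA processing as well, had 0.06 and 0.11.

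Receptors and transcription factors of the pathway had small differences. Of 17 of 21 genes with a row 0 passed, the median log2 fold change was 0.09, and in 4 of them (23.5%) every shRNA array exceeded every GFP array, by at most 0.35 in log2 fold change, against 4.87% of rows with 1 symbol. IRF3, the factor activated by the RNA sensors, had 4.33, 4.28 and 4.18 in the shRNA arrays, against 3.91, 3.81 and 4.02 in the GFP arrays (0.35 ± 0.13, SE; limma, adjusted p = 0.958). IRF2 had 0.31, IRF7, which interferon is known to induce, had 0.23 and JAK2 had 0.18, and in these 3 also the groups do not overlap. IRF9, a DNA-binding partner of STAT2, had 3.41, 3.94 and 4.33 in the shRNA arrays, against 3.89, 3.46 and 4.03 in the GFP arrays, with overlap (0.10). IRF1 had 0.08, IRF4 -0.13, IRF5 -0.33 and IRF8 0.07. The type I receptor genes IFNAR1 and IFNAR2 had 0.23 and 0.10, IFNGR1 and IFNGR2 had -0.25 and 0.10, and IFNLR1 had -0.01. JAK1 had -0.11, TYK2 0.09 and STAT3 -0.17.

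The lists of induced effectors held 11 of the 13 genes that rose. Over all rows with 1 symbol, 0.0901% rose and 2.18% were higher and 2.27% lower at an unadjusted p under 0.05. Of 6 OAS and MX genes 1 passed, 6 were higher at an unadjusted p under 0.05, and the median log2 fold change was 0.99. MX2, OAS3 and OASL, which did not pass, had 0.77, 0.63 and 0.49, and OASL alone overlapped. Of 32 other interferon-induced genes with a row, 4 passed, 15 were higher at an unadjusted p under 0.05, 0 were lower, and the median was 0.50. Of these, SP100, a nuclear body protein, had 0.74, EPSTI1 0.80, LGALS3BP, a secreted glycoprotein, 0.72, HERC6 0.66, LAMP3 0.66, XAF1, a promoter of cell death, 0.71, IFI30, a lysosomal reductase, 0.38, IFI27 0.48, PLSCR1 0.37, PNPT1, a mitochondrial exonuclease, 0.51 and IFI35, a partner of NMI, 0.37. PML, the organizer of nuclear bodies, had 0.23, HELZ2 0.20, BATF2 0.02, TNFSF10, the death ligand TRAIL, 0.13 and the GTPases GBP3, GBP4 and GBP5 0.43, 0.26 and 0.15. None of them passed. Of 15 restriction factors with a row, of 26 listed, 3 passed and the median was 0.69, with ISG20, a 3′ exonuclease, at 0.90 and TRIM38, a regulator of innate signalling, at 0.69. TRIM14 had 0.47, SLFN5 0.76, APOBEC3C, a cytidine deaminase, 0.54, MOV10, an RNA helicase, 0.33, ZC3HAV1, which binds CpG-rich RNA, 0.12, SLFN12 -0.02 and APOBEC3A 0.00. Over the 4 effector lists, IFIT genes included, 57 of 74 genes had a row, and every shRNA array exceeded every GFP array in 36 of them (63.2%), against 4.87% of rows with 1 symbol.

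Enzymes that attach ISG15 and feedback inhibitors form a smaller list, with 7 of 9 genes measured, 0 passed and a median log2 fold change of 0.40. UBE2L6, the conjugating enzyme for ISG15, had 3.96, 4.09 and 3.91 in the shRNA arrays, against 3.57, 3.28 and 3.27 in the GFP arrays (0.61; limma, adjusted p = 0.692). HERC5, the ligase, had 0.61 with overlap, UBA7, the activating enzyme, had 0.20, TRIM21 had 0.40, and the inhibitors SOCS1 and SOCS3 had 0.34 and 0.03. Of 14 PARP and partner genes 1 passed, PARP14. PARP9, which works with DTX3L, had 0.84, DTX3L had 0.56, PARP12 0.40 and PARP10 0.23. PARP1, PARP2 and TNKS, which act in DNA repair and telomere maintenance, had -0.12, 0.16 and -0.28. PARP3, PARP4, PARP8, PARP11 and PARP16 had -0.07, 0.22, -0.27, 0.01 and 0.11, and TNKS2 had -0.02.

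MHC class I genes were measured for 15 of 22 members, and 1 passed, ERAP2. TAP1, a subunit of the peptide transporter, had 4.58, 4.89 and 4.78 in the shRNA arrays, against 4.27, 4.04 and 3.76 in the GFP arrays, without overlap (log2 fold change 0.73; limma, adjusted p = 0.475). TAP2, its partner, had 0.43, ERAP1 0.47, PSME1 0.48, B2M, the light chain, 0.53 and the transactivator NLRC5 0.22. HLA-E and HLA-F had 0.12 and 0.26. The immunoproteasome subunits PSMB8 and PSMB10 had 0.24 and 0.14, and the loading chaperones TAPBP, CALR and CANX had 0.23, 0.39 and -0.15. PSME2 ranged from 0.92 to 4.79 over the shRNA arrays and from 1.93 to 4.98 over the GFP arrays, too wide a spread to compare.

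Over all 10 interferon and RNA sensing lists 141 of 178 genes had a row, and 119 of these (84.4%) had a log2 fold change above 0, against 55.9% of rows with 1 symbol. At an unadjusted p under 0.05, 54 were higher and 0 lower. In 58 (41.1%) every shRNA array exceeded every GFP array, and in 0 below, against 4.87% and 3.89% of rows with 1 symbol. The median log2 fold change was 0.26, against 0.03. The lists hold known members and were chosen with earlier results of these data known, so these counts describe them and are not a test.

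**Figure D3:**
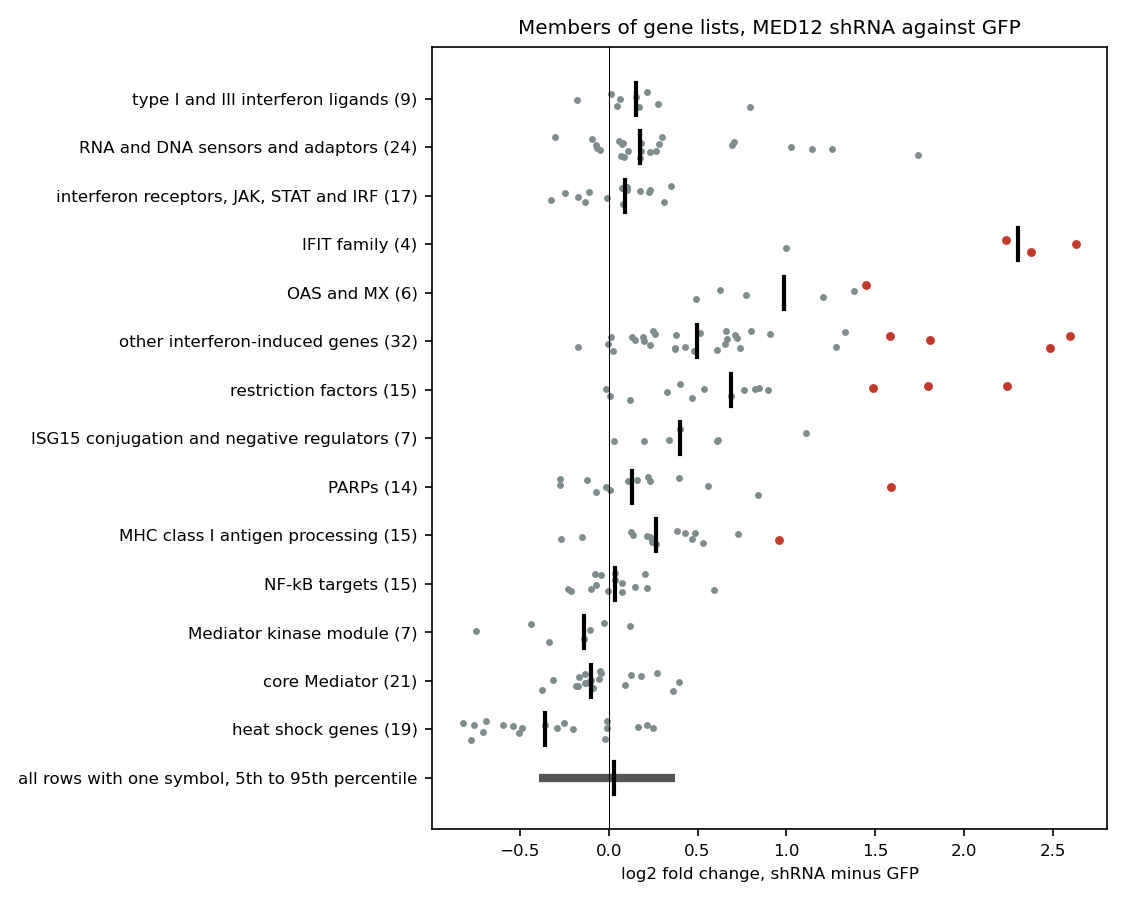
Log2 fold change, shRNA minus GFP, of each list member with a row. Each point is a gene, red where it passed, black bars are medians, and the number after a list name is its measured members. The lowest bar spans the 5th to 95th percentile of all rows with 1 symbol, with their median. The IFIT family has its median at 2.31 and OAS and MX at 0.99, while NF-kB targets sit at 0.04 and heat shock genes at -0.36.

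Some well known interferon targets did not pass. CXCL10, a chemokine that interferon induces, had 2.62, 2.00 and 2.30 in the shRNA arrays, against 2.61, 1.71 and 1.86 in the GFP arrays (log2 fold change 0.25). CXCL9 and CXCL11, which share its receptor, had -0.17 and 0.65. CCL5, another chemokine, had -0.00 and RTP4, a chaperone of receptors, had 0.01. CMPK2, the mitochondrial kinase that lies beside RSAD2, had 4.16, 3.97 and 3.76 in the shRNA arrays, against 4.23, 3.60 and 3.48 in the GFP arrays (0.19). The groups overlap in CXCL10, CMPK2, CCL5, RTP4 and CXCL9, and not in CXCL11. Of 15 of 17 NF-kB targets with a row 0 passed, with a median of 0.04, and TNF had -0.23, NFKBIA -0.01, IL6 0.22 (-0.13 in its second row) and CXCL8 0.07. CCL2 was the one gene of this list with an unadjusted p under 0.05 (0.59; limma, adjusted p = 0.989).

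Of the 13 genes that rose, 2 (IFIT2 and IFIT3) lie directly beside each other by the gene order of RefSeq's GRCh38.p14 annotation. Only IFIT1B, which has no row with 1 symbol, lies between IFIT3 and IFIT1, which also rose. LIPA, a lysosomal lipase next to IFIT2, had a log2 fold change of 0.55. LIPA and the neighbours named next did not pass. IFI44L lies beside IFI44 (1.28), SAMD9L beside SAMD9 (0.84) and OAS3 beside OAS2 (0.63). ERAP1 lies beside ERAP2 (0.47) and IFIT5 beside IFIT1 (1.00). There were 16 adjacent genes with a row that did not rise. Their median was 0.22, 0 passed, 6 were higher and 0 lower at an unadjusted p under 0.05, against 2.18% and 2.27% of rows with 1 symbol. Probes of neighbouring paralogues may share sequence, and this was not tested.

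No gene with a row of its own fell by the test, and the lower genes with the lowest p are given as values. SKP1, a subunit of SCF ubiquitin ligases, had 5.30, 5.18 and 5.20 in the shRNA arrays, against 6.50, 6.25 and 6.18 in the GFP arrays. The shRNA arrays are tight and about a log2 unit lower, and the log2 fold change of -1.08 ± 0.18 (SE) did not pass (limma, adjusted p = 0.100). SKP1 did pass without full-length replicate 3 (adjusted p = 0.0303), with rows of 1 symbol fitted by themselves (0.0292) and with array weights (0.00105), and over the other settings its adjusted p was 0.0573 to 0.594. UTP11, a factor of small ribosomal subunit assembly, had 4.90, 5.18 and 4.60 in the shRNA arrays, against 5.74, 5.74 and 5.77 in the GFP arrays (-0.86; limma, adjusted p = 0.214). RPF2, which brings 5S particles into the large subunit, had 6.23, 6.81 and 7.00 in the shRNA arrays, against 8.23, 7.65 and 7.80 in the GFP arrays (-1.21; limma, adjusted p = 0.542). These are values of row 2921374, and a second row of RPF2, 3883542, had 0.17 (limma, adjusted p of at least 0.999). CEBPZ, a nucleolar protein also needed for ribosome assembly, had -0.84.

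Further genes among the 20 with the lowest p that were lower have other roles. GMNN, the replication licensing inhibitor geminin, had -0.74 and SGO2, which protects centromeric cohesion, had -0.81. HDAC2, a histone deacetylase, had 6.01, 6.41 and 6.24 in the shRNA arrays, against 6.86, 7.03 and 6.79 in the GFP arrays (-0.68; limma, adjusted p = 0.673). The log2 fold changes of LSMEM1, MTDH, ZNF654 and LSM5, a part of the U6 snRNA-binding ring, were -0.84, -0.79, -0.78 and -0.89. TRMT13, a tRNA methyltransferase, had -0.76, SLC12A2, a chloride cotransporter, -0.75, DESI2 -0.60, CGGBP1 -0.70, HNRNPLL, a splicing factor, -0.54 and JAGN1 -0.78. In all 20 genes, MED12 and ZFAND2A among them, every shRNA array was under every GFP array, which their choice by the p of this contrast nearly fixes. REEP3, which acts in clearing endoplasmic reticulum from chromosomes, had the lowest log2 fold change of these in its row 3249043. The row had 1.72, 3.76 and 1.81 in the shRNA arrays, against 4.61, 3.79 and 5.32 in the GFP arrays (-2.15 ± 0.59, SE; limma, adjusted p = 0.751), and shRNA replicate 2 lay next to GFP replicate 2. A second row of REEP3, 3248999, had -0.19 (limma, adjusted p of at least 0.999).

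**Figure D4:**
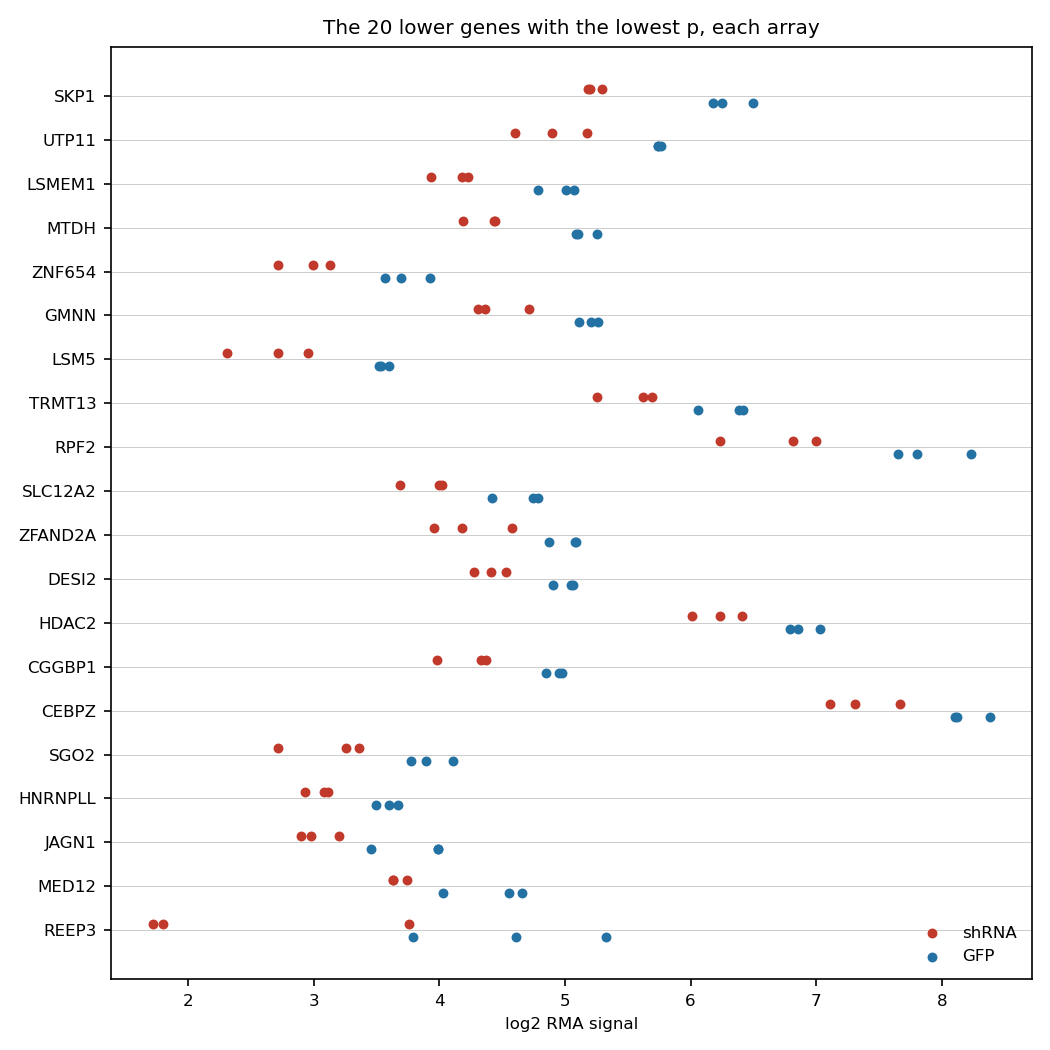
Log2 signal of the 20 lower genes with the lowest p. For each gene the 3 shRNA arrays (red) are drawn above the 3 GFP arrays (blue), and no red point reaches a blue one. SKP1 lies at 5.18 to 5.30 with the shRNA and 6.18 to 6.50 with GFP. None of these genes passed.

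Heat shock genes with a row of 1 symbol tended to be lower, with 0 of 19 measured members, of 27 listed, passing. HSPA1A, HSPA1B and HSPA6 had no row with 1 symbol, so these counts say nothing about them. At an unadjusted p under 0.05, 7 were lower (36.8%) and 0 higher, against 2.27% of rows with 1 symbol that were lower, and the median log2 fold change was -0.36. In 4 of the 19 (21.1%) every shRNA array was under every GFP array, against 3.89% of rows with 1 symbol. ZFAND2A, a stress-induced partner of the proteasome, had 3.96, 4.58 and 4.18 in the shRNA arrays, against 5.09, 4.87 and 5.08 in the GFP arrays (-0.78; limma, adjusted p = 0.638). HSPA1L, an HSP70 family member, had 3.21, 2.61 and 3.23 in the shRNA arrays, against a mean of 3.72 ± 0.28 (SD, n = 3) in the GFP arrays (-0.71; limma, adjusted p = 0.857). Both are without overlap, as are HSPA4L (-0.59) and HSP90AA1 (-0.49). HSPH1 had -0.82 with overlap, since its shRNA replicate 2 reached 5.96, DNAJB1 had -0.69 and DNAJB4 -0.54. HSPA8, the constitutive HSP70, had -0.01, HSPD1 0.21 and HSF1, the transcription factor of the response, -0.01. The mean over the members, after subtracting each gene's GFP mean, was -0.60, -0.08 and -0.33 in shRNA replicates 1, 2 and 3, against -0.22, 0.15 and 0.08 in GFP replicates 1, 2 and 3. The narrow replicate 1 was lowest in both groups, and the list median ran from -0.51 to -0.21 over the fits without 1 array.

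Both rows that fell over all rows, 0.00909% of 22011, are annotated to 2 genes and are given by number only. Row 2902707 had 7.93, 8.31 and 8.41 in the shRNA arrays, against 9.56, 9.81 and 9.46 in the GFP arrays (log2 fold change -1.39 ± 0.18, SE; limma, adjusted p = 0.0166). Row 2363784 had 3.61, 3.16 and 3.25 in the shRNA arrays, against 4.35, 4.67 and 4.35 in the GFP arrays (-1.11 ± 0.17, SE; limma, adjusted p = 0.0448). In both the shRNA arrays also lay below the other 9 arrays.

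Stress, growth and signalling lists held no gene that passed. Endoplasmic reticulum stress genes (17 of 18 measured) had a median log2 fold change of -0.06, with HERPUD1 at -0.42, and ATF4 targets (24 of 26) had -0.14, with ASNS, the asparagine synthetase, at -0.78 and CHAC1, a glutathione-degrading enzyme, at 0.52. Immediate early genes (27 of 31) had 0.01, with JUN at -0.46 and CCN2 at -0.40, both without overlap. The median of p53 targets (16 of 20) was -0.07, with BAX at 0.56, TNFRSF10B at 0.48 and PLK2 at -0.41. Hypoxia and glycolysis genes (24 of 28) had -0.00, with PDK1 at -0.51. Genes of RNA interference and small RNA processing (14 of 14) had 0.09, and apart from ADAR 0 had an unadjusted p under 0.05.

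No gene of the cell cycle lists passed. S phase genes (34 of 37) had a median of -0.09, with 4 lower (11.8%) and 1 higher (2.94%) at an unadjusted p under 0.05, against 2.27% and 2.18% of rows with 1 symbol. Their mean, after subtracting each gene's GFP mean, was -0.32, 0.18 and -0.15 in shRNA replicates 1, 2 and 3, against -0.27, 0.12 and 0.15 in GFP replicates 1, 2 and 3. The groups overlap, and the narrow replicate 1 was lowest in both. PRIM1, the primase subunit, had 4.13, 5.14 and 4.61 in the shRNA arrays, against 5.13, 5.58 and 5.61 in the GFP arrays (-0.81; limma, adjusted p = 0.857), and MCM6, a helicase subunit, had -0.80. In both the groups overlap through shRNA replicate 2. Genes of G2 and mitosis (32 of 35) had -0.14, with CENPE, a kinetochore motor, and HMMR both at -0.72 and without overlap, and AURKB at 0.49. The mean over this list was -0.40, 0.17 and -0.16 in the shRNA arrays, against -0.36, 0.14 and 0.22 in the GFP arrays, again with overlap and with replicate 1 lowest in both. Proteasome subunits (24 of 31) had -0.16, with PSMC2 at -0.96, cytosolic ribosomal proteins (15 of 39) had 0.06, oxidative phosphorylation genes (36 of 50) -0.03 and cholesterol and fatty acid synthesis genes (21 of 30) -0.08, with HMGCS1 at -0.47.

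Pathways in which MED12 is known to act showed no called gene. Neuronal genes repressed by REST (28 of 32), for which MED12 links REST to the methyltransferase G9a, had a median of 0.01, and NEFM, a neurofilament gene, had 4.68, 4.82 and 5.01 in the shRNA arrays, against 5.26, 5.53 and 5.51 in the GFP arrays (-0.60; limma, adjusted p = 0.758). REST and its corepressors (12 of 16) had -0.19, with HDAC2 the only one at an unadjusted p under 0.05, CDYL at -0.34 and KDM1A at -0.59. Hedgehog pathway genes (17 of 21) had 0.11, with GAS1, a co-receptor, at 0.47, FOXF1, a target, at 0.42 and GLI1, the activator, at 0.25. In 5 of these 17 genes (29.4%) every shRNA array exceeded every GFP array, against 4.87% of rows with 1 symbol. The mean over this list, after subtracting each gene's GFP mean, was 0.23, -0.03 and 0.04 in shRNA replicates 1, 2 and 3. It was 0.13, -0.09 and -0.05 in GFP replicates 1, 2 and 3, so the groups overlap, and the narrow replicate 1 was highest in both. Wnt and beta-catenin genes (32 of 36) had -0.00, with FZD4, a receptor, at 0.32. TGF-beta receptors and targets (20 of 22) had 0.02, with SMAD7, the inhibitor, at 0.34.

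Compared with the MED12 constructs, which share the pcDNA5/TO vector with GFP, the shRNA arrays also had higher interferon-induced genes. These comparisons use the same 3 shRNA arrays, so they are not independent of the one with GFP. Against full-length MED12, 10 rows with 1 symbol were higher (0.0693%) and 8 lower (0.0554%). IFI44 was at 5.72 ± 0.23 in the shRNA arrays and 3.75 ± 0.14 with full-length MED12 (SD, n = 3 each), a log2 difference of 1.97 (limma, adjusted p = 4.67e-04). RSAD2 had 2.02, IFIT2 1.94, TRIM22 2.27, IFIT3 1.93, IFIT1 1.82, IFITM1 1.70, OAS2 1.55, NMI 1.34 and SAMD9 1.18, and all passed. PARP14, NT5C3A and ERAP2, at 1.30, 1.29 and 0.87, did not (limma, adjusted p = 0.0800, 0.0605 and 0.0689). The 8 lower genes were MED12 (-7.01), SKP1 (-1.35) and the heat shock genes DNAJB1, HSPH1, HSPA1L, ZFAND2A, HSPA4L and DNAJB4, from -2.91 to -1.45. In each of these heat shock genes the full-length mean also lay above the GFP mean, and none of them passed against GFP. DNAJB1 was at 5.93 ± 0.38 with full-length MED12, 3.72 ± 0.27 with GFP and 3.02 ± 0.55 with the shRNA (SD, n = 3 each). HSPH1 was at 7.48 ± 0.08, 6.18 ± 0.28 and 5.36 ± 0.58 in the same order.

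Against the PQL/Opa-deleted construct, 3 rows with 1 symbol were higher (0.0208%) and 2 lower (0.0139%). The higher ones were IFI44 (1.58), NMI (1.28) and TRIM22 (2.07), with adjusted p-values of 0.00488, 0.0300 and 0.0325 (limma). The lower ones were MED12 (-5.25) and ZFAND2A (-1.51). ZFAND2A was at 5.74 ± 0.25 with the construct, 5.01 ± 0.12 with GFP and 4.24 ± 0.31 with the shRNA (SD, n = 3 each). RSAD2 and IFIT2, at 1.55 and 1.70, had an adjusted p of 0.0545 each. IFIT3 was at 5.94 ± 0.26 in the shRNA arrays, 4.95 ± 0.43 with the PQL/Opa-deleted construct and 3.56 ± 0.21 with GFP (SD, n = 3 each), so its difference from the construct, 0.99, was smaller than that from GFP and did not pass (limma, adjusted p = 0.597). TRIM22 stood in the construct arrays at 2.31 ± 0.53 with full-length MED12 and 2.52 ± 0.11 with the PQL/Opa-deleted form, near the 2.34 ± 0.23 seen with GFP (SD, n = 3 each).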

How the data were processed

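RNA of HEK293 cells, amplified and labelled with biotin, was measured on 12 arrays of 1 colour, in 4 groups of 3 replicates. The authors deposited log2 values, 1 per row and array, made with Partek and RMA on build hg18, per the submitters' processing notes. No source used here gives their versions. The deposited log2 values were used as they are, and 0 columns were left out. Gene symbols came from GEO's platform annotation: 14432 rows have 1 symbol, 2408 several and 5171 none. Of the first, 14404 were found in a RefSeq table by Entrez identifier.

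In R 4.3.3, limma 3.58.1 (lmFit, then eBayes) was run on the 22011 rows of the 12 arrays with a mean for each of 4 groups, leaving 8 residual degrees of freedom beside 3.52 prior ones, and p-values were adjusted over all rows. The median SE of a log2 fold change was 0.23. The fit was tested on simulated data. No exact permutation test is given, as 3 against 3 arrays allow no p under 0.1. For a gene with several rows the lists use the row with the highest mean.

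The members and the 35 gene lists were chosen with earlier results of these data known. Named are MED12 and MED12L, every row with 1 symbol that passed, the next by p up to 25 higher and 20 lower, every member of the interferon and kinase module lists, and up to 4 members of each other list by p with the largest change in each direction. Rows with 2 symbols that passed are named by number. The alternatives were other sets of arrays, normalizations, filters and variance models.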

Additional observations from a re-analysis of the deposited data

How the results depend on the processing

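The 13 genes kept their direction in all alternatives that fitted them, and the number of calls moved. Rows called between the shRNA and GFP were 15 in the fit reported, 4 with the 6 compared arrays alone, 23 once quantile-normalized and 5702 under array weights, where shRNA replicate 3 had a weight of 8.77. Rows with 1 symbol went likewise with 3, 20 and 3560 against 13, and were 21 when only such rows were fitted. Called members of the interferon lists numbered 3, 20 and 76 in those fits and 20 when only rows with 1 symbol were fitted. Without 1 array the counts ran over 5 to 20 rows, 5 to 18 rows with 1 symbol and 5 to 18 list members. They were lowest without GFP replicate 2 (5) and GFP replicate 3 (8). Of the 13 genes 3 were still called with the compared arrays alone, 13 after quantile normalization, 12 after scaling each array to one median absolute deviation and 9 above the median row, where NMI, TRIM22, OAS2 and ERAP2 were not fitted. MED12 had -0.81 with array weights, where it passed (limma, adjusted p = 0.00190), and -0.94 to -0.62 without 1 array, never called. MED12L, between -0.19 and 0.13 without 1 array, turned to 0.06 without GFP replicate 1 and 0.13 without shRNA replicate 2. Against full-length MED12 23 rows were called, 2 alone, 37 after quantile normalization, 3383 with array weights and 9 to 39 without 1 array. Against the PQL/Opa-deleted construct 7 were called, 1 alone, 21 after quantile normalization, 13 after scaling, 6157 with array weights and 3 to 20 without 1 array. The cause of these moves was not tested.

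The labels do not say what a replicate number marks. Deviations of same-numbered shRNA and GFP arrays correlated at 0.464, 0.269 and 0.0223, so not all 3 pairs were over 0.1. Those of shRNA replicate 2 correlated more, at 0.477, with a GFP array of another number. For shRNA replicate 1 the value was 0.448 with PQL/Opa-deleted replicate 1 and 0.203 with full-length replicate 1. Whether same-numbered arrays share a batch was not tested. With the number as a block 18 rows were called, 12 of the 13 genes among them (OAS2 was not), and 38 against full-length MED12. The 3 narrowest arrays were replicate 1 of the shRNA, GFP and PQL/Opa-deleted groups, with a standard deviation of 1.34, 1.40 and 1.45. Without them, an alternative chosen after seeing the data, 14 rows with 1 symbol were called, 9 of the 13 genes among them. The number of arrays and the lack of detection calls limit all values.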
